A study of Mus musculus with 48 samples.

Results

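The 3 genes described here are part of the sterol-regulated control of lipid synthesis. Srebf1, Insig2 and Scap were taken by gene symbol, 3 of 24453 genes in the exon table and of 20771 in the intron table. Livers of wild-type (WT) and Nono-/- mice were collected at 12 zeitgeber times (ZT), every 2 h from ZT0 to ZT22, where ZT0 is lights on and ZT12 lights off. All mice were C57BL/6, 14 weeks old, kept in 12 h of light and 12 h of dark, and given food in the dark phase only for the week before collection. Each of the 48 libraries came from a pool of 2 mice, and total RNA and nuclear RNA were taken from the same liver sample, so each genotype and RNA fraction had 12 libraries, 1 per time. Nono-/- mice lack NONO, an RNA-binding protein of nuclear paraspeckles. The labels give the genotype and do not describe the allele.

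Srebf1 encodes SREBP1, a transcription factor made as a precursor held in the endoplasmic reticulum membrane. Scap encodes the escort protein that carries SREBP precursors to the Golgi, where proteases release the active part, and Insig2 encodes one of the 2 INSIG proteins that bind SCAP and keep it in the endoplasmic reticulum when sterols are plentiful. In liver, SREBP1c drives fatty acid synthesis after feeding, its transcription is raised by insulin and by the oxysterol receptor LXR, and a liver transcript of Insig2 is lowered by insulin.

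Levels are FPKM, read counts divided by the length of the counted exons or introns and by library depth, and each describes 1 library. Exon values in total RNA mostly reflect mature mRNA, and intron values in nuclear RNA mostly reflect unspliced transcripts. Srebf1 was counted over chr11:60199084-60220627 on the minus strand of mm10, with 4291 bases of exons and 17214 bases of introns. The file headers name no strand option, and the last 112 bases of the Srebf1 model overlap the end of Rai1, which lies on the plus strand, so reads in that stretch cannot be told apart. In total RNA exons, Rai1 was at 0.527 ± 0.185 FPKM in WT and 0.428 ± 0.128 FPKM in Nono-/- (SD, n = 12), against a lowest Srebf1 value of 5.97 FPKM. In nuclear RNA the 2 genes were closer. Rai1 exons reached 1.04 FPKM in WT and 0.802 FPKM in Nono-/-, where the lowest Srebf1 exon values were 1.89 and 0.523 FPKM. Rai1 introns averaged 2.04 FPKM in WT and 2.07 FPKM in Nono-/-. These Rai1 levels are averages over its whole model and do not measure reads in the shared 112 bases. Mir6921 (80 bases) and Mir6922 (66 bases) also lie within Srebf1 on its own strand. Insig2 was counted over chr1:121304353-121332589 for exons (2453 bases, minus strand) but over the shorter model chr1:121304353-121328024 for introns (21347 bases), so the 2 Insig2 measures come from transcripts with different starts. Scap was counted over chr9:110333288-110384949 for exons (4113 bases, plus strand) and chr9:110333356-110384949 for introns (47346 bases); no other gene overlaps it, and Ptpn23 begins 139 bases beyond its end on the other strand. These values do not separate SREBP1a from SREBP1c, or the Insig2 transcripts from each other.

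The start regions of the counted models, except the Scap exon model, are shown. The exon and intron counts use different starts for Insig2 and Scap and the same start for Srebf1, and the levels described below change by the hour. Each is a RefSeq window of 300 bases on GRCm38.p6, the build named mm10 elsewhere, with 250 bases before and 50 after an annotated start, written 5′ to 3′ on the gene's strand, with letters that match a searched motif in capitals. RefSeq windows were found for all 3 genes: 3 for Srebf1, 3 for Insig2 and 2 for Scap. Motifs searched on both strands were CACGTG (E-box, the element bound by CLOCK:BMAL1), AGGTCA (nuclear receptor motif), TCACNCCA (core of the sterol element), CCAAT and TTANNTAA (core of the D-box).
Srebf1, start of the counted model, chr11:60220578-60220877: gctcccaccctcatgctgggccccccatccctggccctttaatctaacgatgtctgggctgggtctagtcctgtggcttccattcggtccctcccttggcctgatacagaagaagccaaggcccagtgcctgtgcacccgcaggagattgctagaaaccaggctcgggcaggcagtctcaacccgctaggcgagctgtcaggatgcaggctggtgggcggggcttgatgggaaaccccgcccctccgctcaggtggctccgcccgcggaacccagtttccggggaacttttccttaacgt
Srebf1, start inside the counted model, chr11:60210422-60210721: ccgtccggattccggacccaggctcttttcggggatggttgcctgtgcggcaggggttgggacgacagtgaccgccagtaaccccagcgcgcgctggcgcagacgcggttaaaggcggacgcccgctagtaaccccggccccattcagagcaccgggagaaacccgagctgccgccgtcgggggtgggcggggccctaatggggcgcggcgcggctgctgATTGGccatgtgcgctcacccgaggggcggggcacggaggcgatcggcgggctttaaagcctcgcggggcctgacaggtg
Insig2, start of the exon model, chr1:121332540-121332839: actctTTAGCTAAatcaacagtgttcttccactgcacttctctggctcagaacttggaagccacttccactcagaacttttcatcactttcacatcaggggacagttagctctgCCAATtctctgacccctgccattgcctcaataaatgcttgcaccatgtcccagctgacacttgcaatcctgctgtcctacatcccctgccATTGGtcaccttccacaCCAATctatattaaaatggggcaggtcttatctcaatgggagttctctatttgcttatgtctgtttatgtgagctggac
Insig2, start of the intron model, chr1:121327975-121328274: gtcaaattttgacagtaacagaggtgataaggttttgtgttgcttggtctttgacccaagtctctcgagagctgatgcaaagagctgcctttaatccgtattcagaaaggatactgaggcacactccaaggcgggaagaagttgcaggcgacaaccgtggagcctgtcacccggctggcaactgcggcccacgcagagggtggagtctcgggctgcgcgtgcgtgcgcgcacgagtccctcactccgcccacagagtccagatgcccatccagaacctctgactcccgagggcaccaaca
Scap, start of the intron model, chr9:110333106-110333405: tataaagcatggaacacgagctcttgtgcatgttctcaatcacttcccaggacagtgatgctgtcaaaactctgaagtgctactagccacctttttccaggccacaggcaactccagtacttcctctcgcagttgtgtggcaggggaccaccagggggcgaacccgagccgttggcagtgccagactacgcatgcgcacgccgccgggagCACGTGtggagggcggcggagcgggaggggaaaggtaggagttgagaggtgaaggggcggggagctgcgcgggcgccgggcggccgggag
The window at the start of the counted Srebf1 model held none of the 5 motifs, and the one inside the model held CCAAT on the opposite strand. The Insig2 exon-model window held TTAGCTAA and 3 copies of CCAAT, counting both strands, while the intron-model window held none of the 5. The Scap intron-model window held 1 CACGTG, beginning 40 bases before the start. In the exon-model window of Scap the same letters begin after the start (-28 on the scale of bases before it). Among all 32851 windows, 7.15% held CACGTG, 16.3% AGGTCA, 4.36% TCACNCCA, 37.4% CCAAT and 6.00% TTANNTAA. A match describes letters only.

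Library depth, recovered from the smallest steps of the FPKM values, was 9.91 to 28.9 M reads, and 100% of the low values read were whole reads within 0.1 of a read. Nono exons were at 9.95 ± 0.594 FPKM in WT total RNA and 0.0162 ± 0.0292 FPKM in Nono-/- total RNA (SD, n = 12 each), with 8 of 12 Nono-/- libraries listed at 0. The 8 hepatocyte markers summed to 30499 to 49103 FPKM in WT and 36270 to 50197 FPKM in Nono-/- total RNA; they were abundant in every library. Of 8 Kupffer cell markers 5 were higher in Nono-/- total RNA exons, where 11.1% of all genes were called in either direction, their sum ranging over 75.2 to 190.7 FPKM in WT and 90.6 to 249.1 FPKM in Nono-/-; lymphocyte sums stayed at or under 1.68 FPKM. Adipocyte sums had a median of 0.824 FPKM in Nono-/- total RNA and reached 35.6 FPKM in 1 library. The part of these markers in the results below was not tested. Bulk RNA cannot tell fewer cells of a type from less RNA per cell. Libraries also differed in how exon levels depended on transcript GC content, measured as the slope of log2 deviation per 10 percentage points of GC. In total RNA this slope ran from -0.60 (WT ZT8) to 0.39 (WT ZT20), and in nuclear RNA from -0.99 (Nono-/- ZT2) to 0.44 (WT ZT22). Srebf1 (58.4% GC) and Scap (59.1%) are richer in GC than 94.1% and 95.7% of genes tested, and Insig2 (46.0%) lies below the median gene (49.1%). Values after correction for GC are given beside the main results for Srebf1 and Scap. Intron levels were corrected with the GC of the transcript as well, not with that of the counted introns.

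**Figure D1:**
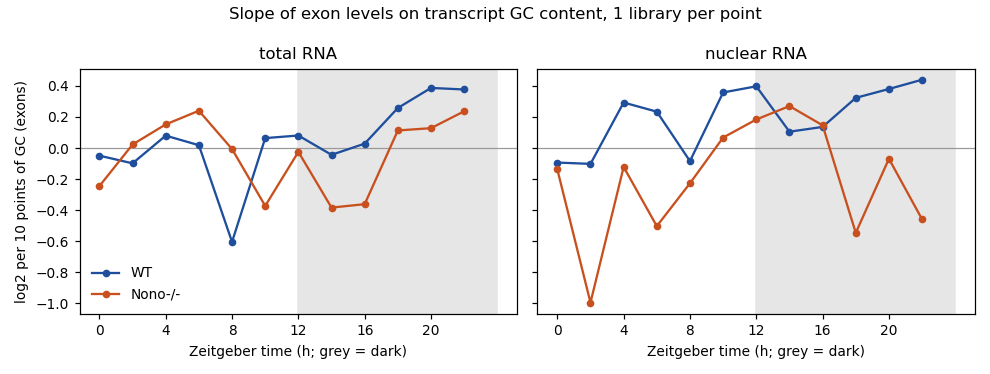
Slope of exon levels on transcript GC content (log2 per 10 percentage points) against zeitgeber time, 1 library per point, for total RNA (left) and nuclear RNA (right). WT libraries are blue, Nono-/- libraries orange. In nuclear RNA the mean slope was 0.20 in WT and -0.20 in Nono-/-.

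Srebf1 mRNA in WT liver rose through the dark phase, when the mice ate, and was low in the light. In WT total RNA its exon level was lowest at ZT8 (5.97 FPKM) and highest at ZT22 (48.1 FPKM), with a median of 17.1 FPKM. From ZT14 it read 26.6, 33.4, 34.0, 44.2 and 48.1 FPKM at successive times, and 18.7 FPKM at ZT0. With ZT0, the time of lights on, counted with the dark and ZT12 with the light, all 6 dark values (18.7 to 48.1 FPKM) lay above all 6 light values (5.97 to 15.6 FPKM). In Nono-/- total RNA Srebf1 ran from 9.34 FPKM at ZT10 to 26.9 FPKM at ZT22, with a median of 14.2 FPKM. Its dark values (10.2 to 26.9 FPKM) overlapped its light values (9.34 to 20.1 FPKM).

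A daily curve of 24 h was fitted with limma to log2(FPKM + 0.1) after median-ratio scaling. It gave Srebf1 a 5.67-fold rise from trough to peak in WT, peaking at ZT18.6 (adjusted p = 3.93e-06). With GC correction the WT rise was 4.06-fold (limma adjusted p = 8.32e-07). In Nono-/- the fitted rise was 1.75-fold with its peak at ZT21.9 (adjusted p = 0.065), which missed the 0.05 threshold used throughout, although the GC-corrected rise of 1.61-fold passed it (adjusted p = 0.0256). All adjusted p-values are Benjamini-Hochberg values over every gene tested in that table. For the curves the spread comes from residuals about the curve, because no time was repeated. For the dark and light comparisons below, fitted without a curve, it is the spread among the times of a phase, daily change included. A rhythm was called for 2 of the 3 genes in WT total exons (Srebf1 and Insig2), where 31.8% of all genes were called, and for 1 of 3 in Nono-/- (Insig2), where 29.6% were. The difference between the 2 Srebf1 curves was 2.07 on the log2 scale from trough to peak. Its unadjusted p of 7.58e-05 ranked 2 among 11352 genes, but its limma adjusted p was 0.430, and no gene of the table (0%) passed for a difference in rhythm, with 1210 at an unadjusted p under 0.05. The GC-corrected difference between the curves was 1.42 (limma adjusted p = 0.434). So the rhythm of Srebf1 is not shown to differ between genotypes.

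**Figure D2:**
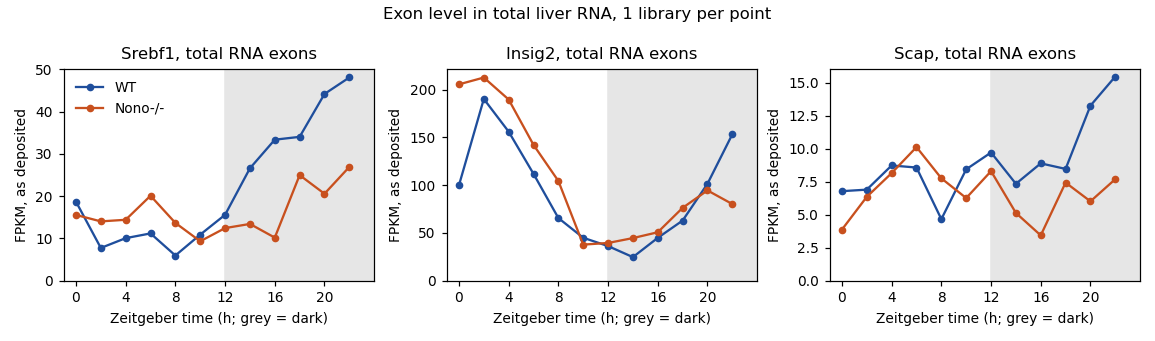
Exon level in total RNA (FPKM as deposited, linear axis from 0) against zeitgeber time for Srebf1, Insig2 and Scap, 1 library per point, dark phase in grey. WT Srebf1 climbs to 48.1 FPKM at ZT22 while Nono-/- stays at or under 26.9 FPKM; the Insig2 curves of both genotypes peak at ZT2.

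Split by phase, Srebf1 was lower in Nono-/- livers in the dark, and its difference in the light did not pass. In the dark (ZT14 to ZT0, 6 libraries a genotype) the means were 34.2 ± 10.9 FPKM in WT and 18.6 ± 6.64 FPKM in Nono-/- (SD), and the fitted difference was -0.89 ± 0.22 (log2, SE; limma adjusted p = 0.022). Nono-/- was lower at each of the 6 dark times, from a log2 difference of -0.29 at ZT0 to -1.63 at ZT16. In the light the difference was 0.43 ± 0.22 (adjusted p = 0.967), Nono-/- being higher at 4 of 6 times, by up to 0.94 at ZT8. The dark difference lost its call without ZT16 or without ZT20, where the adjusted p reached up to 0.0946. The mean GC slope in the dark was 0.16 in WT and -0.085 in Nono-/-, and after GC correction the dark difference was -0.61 ± 0.12 (adjusted p = 0.0066). Dark and light effects differed by -1.32 ± 0.31 (log2, SE) without passing (adjusted p = 0.573; no gene of the table, 0%, passed, and 962 had an unadjusted p under 0.05). Scap, the SREBP escort, was also lower in the dark (-0.83 ± 0.19, adjusted p = 0.0175), so 2 of the 3 genes were called lower there, against 4.11% of all genes tested. Without ZT16 the Scap call was lost (adjusted p = 0.0703), and its GC-corrected dark difference was -0.53 ± 0.11 (adjusted p = 0.0073).

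Over the whole day, Srebf1 total exons averaged 22.2 ± 14.6 FPKM in WT and 16.3 ± 5.61 FPKM in Nono-/- (SD, n = 12), a difference of -0.23 ± 0.13 (log2, SE; adjusted p = 0.288) with Nono-/- lower at 8 of 12 times; after GC correction it was -0.15 (adjusted p = 0.324). Of the 3 genes only Scap passed, and it was lower; 11.1% of all genes passed in either direction and 6.57% were lower.

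In nuclear introns, Srebf1 had no called daily rise in WT and a called one in Nono-/- that rested on few libraries. Total RNA introns, given below, had the opposite calls, a rise called in WT and none in Nono-/-. In WT nuclear RNA the intron level rose from 1.68 FPKM at ZT2 to 6.43 FPKM at ZT22 (median 3.61 FPKM), and in Nono-/- it was lowest at ZT2 (0.883 FPKM) and highest at ZT14 (7.26 FPKM; median 3.62 FPKM). The 2 genotypes overlapped over most of their range. The fitted rise was 2.07-fold in WT with a peak at ZT16.5 (adjusted p = 0.140) and 2.47-fold in Nono-/- with a peak at ZT13.5 (adjusted p = 0.0428). The Nono-/- call was lost in 7 of 12 fits that left out 1 time, and after GC correction the rise was 1.83-fold (adjusted p = 0.1005). The Nono-/- nuclear libraries at ZT2 and ZT14 also had the lowest and the highest GC slopes of their group, -0.99 and 0.27. Mean nuclear intron levels were 3.88 ± 1.51 FPKM in WT and 3.83 ± 1.76 FPKM in Nono-/- (SD, n = 12), a difference of -0.047 ± 0.198 (log2, SE), and of 0.19 after GC correction (adjusted p = 0.463). A genotype difference in nuclear introns was called for 0 of the 3 genes by limma, against 17.9% of all genes, and all 3 had unadjusted p-values over 0.05.

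Srebf1 exons in nuclear RNA ran from 1.89 FPKM (ZT2) to 22.4 FPKM (ZT22) in WT and from 0.523 FPKM (ZT2) to 18.4 FPKM (ZT14) in Nono-/-. The rise was 3.65-fold in WT (adjusted p = 0.0716; 3.11-fold and adjusted p = 0.0157 after GC correction) and 4.07-fold in Nono-/- (adjusted p = 0.0263; 2.45-fold and 0.0479 after it). The Nono-/- call was lost without ZT2, ZT6, ZT14 or ZT16, up to an adjusted p of 0.113. The genotype difference in nuclear exons was -0.51 ± 0.27 (log2, SE; adjusted p = 0.149), and -0.029 after GC correction. Total RNA introns of Srebf1 had a called rise of 2.57-fold in WT (adjusted p = 0.0062) and 1.13-fold in Nono-/- (adjusted p = 0.867). With the 2 times of steepest GC slope left out the WT call was lost (adjusted p = 0.0602). Their genotype difference was 0.31 ± 0.13 (log2, SE; adjusted p = 0.113), and with the time point as a block it passed (adjusted p = 0.0376).

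**Figure D3:**
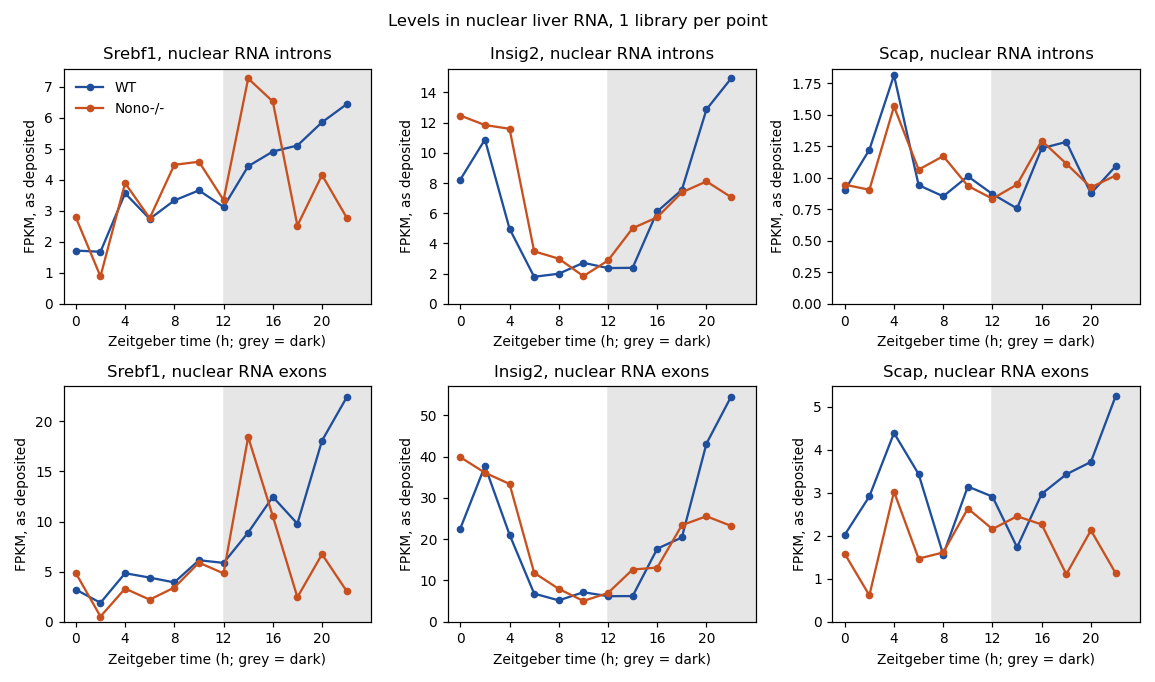
Intron level (top) and exon level (bottom) in nuclear RNA (FPKM as deposited, linear axes from 0) against zeitgeber time, 1 library per point, WT blue and Nono-/- orange, dark phase in grey. Nono-/- Srebf1 is highest at ZT14 (7.26 FPKM in introns), and Insig2 is lowest between ZT6 and ZT14 in both genotypes.

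Insig2 was the 1 gene of the 3 with a rhythm called in both genotypes and in all 4 tables. It was high late in the night and early in the light, and low around the start of the dark. In WT total RNA it was lowest at ZT14 (24.7 FPKM) and highest at ZT2 (190.2 FPKM), with a median of 82.8 FPKM. In Nono-/- it was lowest at ZT10 (37.8 FPKM) and highest at ZT2 (212.6 FPKM), with a median of 87.4 FPKM. The groups overlapped, and from ZT2 to ZT8 both fell at each step. The fitted rise was 5.23-fold in WT, peaking at ZT1.4 (adjusted p = 3.49e-06), and 4.73-fold in Nono-/-, peaking at ZT1.8 (adjusted p = 1.18e-05). The means were 91.0 ± 53.6 FPKM and 106.5 ± 65.5 FPKM (SD, n = 12), a difference of 0.20 (log2) with a 95% interval of -0.06 to 0.46 (adjusted p = 0.336). At ZT0 Nono-/- held 205.5 FPKM against 99.9 FPKM in WT, and at ZT22 the order was the other way, 80.2 against 153.2 FPKM; each is a single library.

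The fitted peak of unspliced Insig2 came before that of the mRNA in both genotypes, a difference in time that was not tested. The highest scaled values kept this order in WT (nuclear introns at ZT22, total exons at ZT2). In Nono-/- they did not, with nuclear introns highest at ZT2 (14.0 FPKM) and total exons at ZT0 (212.8 FPKM). Nuclear introns rose 6.75-fold in WT with a peak at ZT21.8 (adjusted p = 0.000126), from 1.79 FPKM at ZT6 to 14.9 FPKM at ZT22. In Nono-/- they rose 4.50-fold with a peak at ZT23.0 (adjusted p = 0.00109), from 1.83 FPKM at ZT10 to 12.5 FPKM at ZT0. Nuclear exons rose 7.18-fold (peak ZT22.4) and 6.21-fold (peak ZT23.6), and total introns 5.33-fold (peak ZT23.8) and 4.80-fold (peak ZT1.0), in WT and Nono-/- in turn; all 4 passed. GC correction changed none of these Insig2 calls, and the corrected folds ran from 4.17 to 7.25. In nuclear introns a rhythm was called for 1 of the 3 genes in WT (21% of all genes) and 2 of 3 in Nono-/- (32%). In nuclear exons it was 1 of 3 in WT (10.7%) and 2 of 3 in Nono-/- (31.1%), and in total introns 2 of 3 in WT (11.1%) and 1 of 3 in Nono-/- (14.4%). A difference in rhythm was called by limma for 0 of 3 in each of these tables, where 0% of genes passed; 811 nuclear intron, 558 nuclear exon and 471 total intron differences had an unadjusted p under 0.05. In total introns 0 of 3 genes were called for genotype (16% of all genes were), and Srebf1 alone had an unadjusted p under 0.05.

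Scap, the escort of SREBP precursors, had the lowest median exon level of the 3 genes and no called rhythm before GC correction; after it, total exons in Nono-/- had a called rise of 1.51-fold (adjusted p = 0.0066). In WT total RNA it ran from 4.66 FPKM (ZT8) to 15.5 FPKM (ZT22), median 8.52 FPKM, and in Nono-/- from 3.43 FPKM (ZT16) to 10.1 FPKM (ZT6), median 6.89 FPKM. Nono-/- was lower at 10 of 12 times, and the 2 groups overlapped. The means were 8.93 ± 2.89 and 6.71 ± 1.93 FPKM (SD, n = 12), a difference of -0.43 ± 0.14 (log2, SE; limma adjusted p = 0.0452). The call was lost in 10 of 12 fits that left out 1 time (adjusted p up to 0.0943) and on values as deposited (0.104). After GC correction the difference was -0.34 ± 0.07 (adjusted p = 0.0027).
In nuclear RNA the exon level of Scap was 3.12 ± 1.06 FPKM in WT and 1.85 ± 0.711 FPKM in Nono-/- (SD, n = 12), a difference of -0.56 ± 0.16 (log2, SE; adjusted p = 0.0130). Scap was the 1 gene of 3 called there, against 34.3% of all genes in either direction and 18.5% lower. After GC correction it was -0.052 ± 0.095 (adjusted p = 0.759). Nuclear introns of Scap were at 1.07 ± 0.289 and 1.06 ± 0.205 FPKM (SD, n = 12; log2 difference 0.02, 95% interval -0.21 to 0.26). After GC correction the intron difference was 0.27 ± 0.13 (log2, SE; adjusted p = 0.170), with Nono-/- lower at 1 of 12 times. The difference passed with GC correction and the time point as a block (adjusted p = 0.0158). This correction used transcript GC, so it does not show the effect of the introns' own GC.

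**Figure D4:**
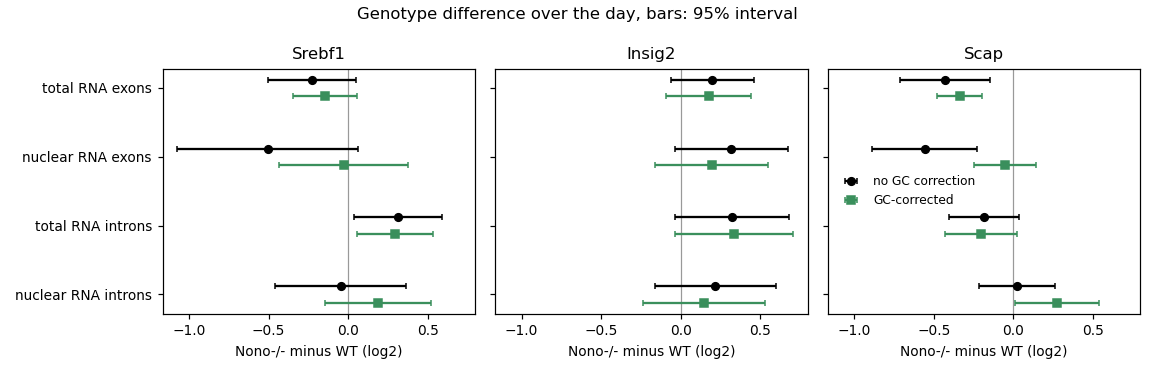
Fitted Nono-/- minus WT difference over the day (log2) for each gene and table, with 95% intervals from limma, before (black circles) and after (green squares) GC correction. For Scap in nuclear exons the point moves from -0.56 to -0.052; for Insig2 all 8 intervals include 0.

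Log2 ratios of levels within a time point compare RNA stages of 1 liver sample. Each stage was scaled separately, so the sign of a log2 ratio does not compare amounts of RNA. For Insig2 the ratio of total exons to nuclear introns changed over the day by 2.36 (log2, peak ZT6.1, adjusted p = 0.000135) in WT and 1.59 (peak ZT6.3, adjusted p = 0.0048) in Nono-/-, so mRNA was highest relative to unspliced RNA in the middle of the light phase. The Insig2 ratio of nuclear to total exons changed by 2.02 in WT (peak ZT18.7, adjusted p = 0.00053) and 1.47 in Nono-/- (peak ZT19.7, adjusted p = 0.0043). For Srebf1 the total exon to nuclear intron ratio changed by 1.70 in WT (peak ZT19.8, adjusted p = 0.0236) and 1.90 in Nono-/- (peak ZT0.1, adjusted p = 0.0116). The WT call was lost without ZT8, ZT10 or ZT22 (adjusted p up to 0.137), the Nono-/- call without ZT2 (0.0609), and both with an added 12 h harmonic (0.115 and 0.0571). After GC correction the changes were 1.24 in WT (adjusted p = 0.0261) and 1.17 in Nono-/- (adjusted p = 0.0416). The Srebf1 nuclear to total exon ratio changed by 2.43 in Nono-/- (peak ZT13.3, adjusted p = 0.0094) and by 0.997 in WT (adjusted p = 0.451). In Nono-/- livers it ran from -4.01 at ZT2 to 0.28 at ZT14 (log2), the nuclear libraries of lowest and highest GC slope in that group. The Nono-/- total library at ZT14 had the lowest slope of its group (-0.38). The GC-corrected change of this ratio was 1.25 (limma adjusted p = 0.0299). Without ZT2 or ZT14 the uncorrected call was lost (adjusted p up to 0.0639).
The exon to intron ratio was rhythmic for 2 of 3 genes in WT (17.4% of all genes) and 2 of 3 in Nono-/- (27%), and the nuclear to total ratio for 1 of 3 in WT (7.13%) and 2 of 3 in Nono-/- (39.4%). Neither ratio passed for genotype in any of the 3 genes, against 7.74% of all genes for exon to intron and 19.8% for nuclear to total; Scap had an unadjusted p of 0.0181 for the first. With the time point as a block the Scap exon to intron ratio passed (-0.45, adjusted p = 0.0169), as it did after GC correction (-0.61, adjusted p = 0.0136). With GC correction and the block together, the Scap nuclear to total ratio passed at 0.29 (limma adjusted p = 0.0323), against -0.13 in the main fit. A difference in rhythm passed limma's test for 0 of 3 genes in both ratios (0% of all genes), with 1639 and 1360 genes at an unadjusted p under 0.05.

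**Figure D5:**
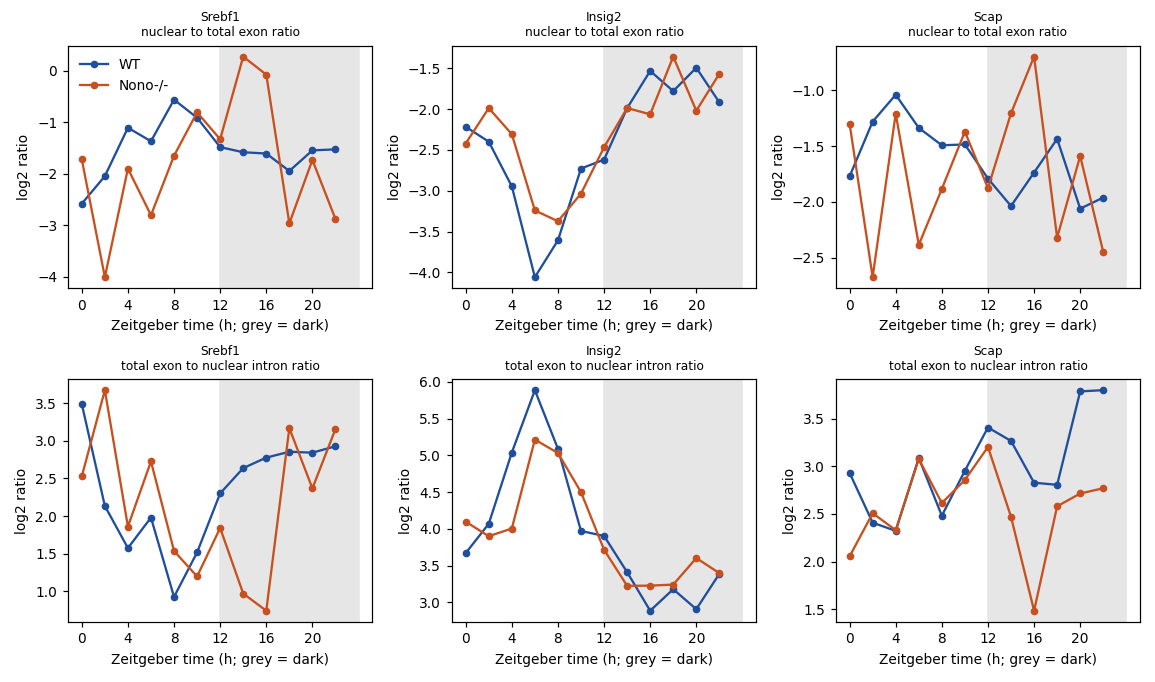
Log2 ratio of nuclear to total exon level (top) and of total exon to nuclear intron level (bottom) against zeitgeber time for the 3 genes, 1 pair of libraries per point, WT blue and Nono-/- orange, dark phase in grey. Insig2 exon to intron ratios peak at ZT6 in both genotypes, and the Nono-/- Srebf1 nuclear to total ratio reaches 0.28 at ZT14.

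FPKM is per length, so exon levels of the 3 genes can be set side by side within a total RNA library. The ratios carry no GC correction, Insig2 (46.0% GC) and Srebf1 (58.4%) differ in GC, and the GC slope differed between libraries. Insig2 stood at a median of 3.65 times Srebf1 in WT, ranging from 0.929 to 24.5 times over the day, and 4.78 times (2.98 to 15.1) in Nono-/-. The ratio of Srebf1 to Scap had a median of 2.18 (1.12 to 4.02) in WT and 2.41 (1.49 to 4.02) in Nono-/-.

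Genes with the most similar profile were named by Pearson r of log2 level over the 24 libraries of a table, as a description; the libraries share time, genotype and GC slope. Srebf1 total exons were closest to Mybbp1a (r = 0.911), Nomo1, Glyctk, Ski and Fasn (r = 0.904), which encodes fatty acid synthase; GC-corrected r was 0.785 to 0.874. Genes close to its nuclear introns were Alad (r = 0.891), an enzyme of heme synthesis, Emc1, Dock6 and Fasn (r = 0.844). Insig2 total exons were closest to Clpx (r = 0.952), a mitochondrial protease subunit, then BC004004, Tlcd2, Tars and Cldn1, and its nuclear introns to Asap2 (r = 0.928), Gm15348, Dtx4, Ceacam1 and Chka. For the Insig2 total exons, GC-corrected r was 0.686 (Tlcd2) to 0.953 (Clpx). Scap total exons were closest to Wdtc1 (r = 0.938), Abcc6, Ptprf, Tmem94 and Pcnxl3. Of the 4 with a GC value all lay between 58.1% and 59.4% GC, and their GC-corrected r was 0.744 to 0.857.

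Other genes of the pathway were read from 3 lists, against the 11.1% of all genes called for genotype in total RNA exons (6.57% lower). In that table, of 23 SREBP machinery genes tested, 0 were higher and 2 lower in Nono-/- (median -0.04, against 0.00 over all genes): Srebf2, which encodes SREBP2, at 2.88 ± 1.69 against 1.88 ± 0.672 FPKM (log2 -0.49, adjusted p = 0.0435), and Npc1, a lysosomal cholesterol transporter (-0.25, adjusted p = 0.0441). Insig1, the other INSIG gene, was at 107.6 ± 39.9 and 107.4 ± 40.2 FPKM in total exons (adjusted p = 0.882); in nuclear exons it was higher in Nono-/- (0.48, adjusted p = 0.0312, higher at 11 of 12 times), and in total introns the difference was 0.47 (adjusted p = 0.0619, higher at 12 of 12). In total exons Insig1 peaked at ZT20.1 in WT and ZT20.5 in Nono-/-. Of 17 genes listed as SREBP1 targets, 0 were higher and 5 lower (median -0.24): Me1, Fads1, Mlxipl, Fasn and Gpam, from -0.31 for Gpam to -0.63 for Fasn. Whether SREBP1 controls each listed gene was not tested. Fasn fitted rises were 10.6-fold in WT (peak ZT19.3) and 4.84-fold in Nono-/- (peak ZT20.9), and the difference did not pass (adjusted p = 0.463). Of 23 upstream regulators 3 were lower (Irs1, Insr and Sik1; median -0.20). In nuclear exons, where 34.3% of all genes were called, the counts were 4 higher and 4 lower of 23 machinery genes, 3 higher and 10 lower of 23 upstream regulators, and 0 higher and 7 lower of 18 SREBP1 targets. In nuclear introns, where 17.9% of all genes were called, 1 of 23 machinery genes was higher (Mbtps2, a protease that releases SREBPs, 0.30), and 3 of 18 SREBP1 targets were lower (Me1, Fads1 and Fads2; median -0.27). Among 24 upstream regulators there, 2 were higher (Bhlhe40 and Sik1) and 4 lower (Lpin1, Akt1, Akt2 and Rxra). All values of listed genes are without GC correction, while the mean nuclear GC slope was 0.20 in WT and -0.20 in Nono-/-. Genotype calls over all genes in total exons fell from 1256 to 23 with the intron share as a covariate. The part of either in the list counts was not tested. These lists were chosen with earlier results of these data known.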

How the data were processed

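RNA-seq libraries were made with TruSeq Stranded Total RNA and Ribo-Zero Gold, per the labels' protocols. FastQC 0.11.2, STAR 2.4.0k and mm10 are named in the submitters' processing notes. The deposited FPKM values came from HOMER analyzeRepeats.pl, counted over exons or introns with 1 model per gene and no strand option, per the file headers. No HOMER version was found in those headers or notes. The FPKM values were scaled per library by the median ratio, genes with a mean under 0.5 (exons) or 0.1 (introns) FPKM were left out, and log2(FPKM + 0.1) or log2(FPKM + 0.05) was fitted with limma 3.58.1 in R 4.3.3: genotype, a 24 h curve and their interaction over 24 libraries, or genotype by phase (dark ZT14 to ZT0, light ZT2 to ZT12). Fold changes lie on that scale and understate those of low genes. Fits were run on simulated data with independent noise for each gene and library. That noise lacks the GC slopes of these libraries, so the run does not test the p-values under them. Alternatives were other scaling, pseudocounts, filters, harmonics, covariates, left-out times and the time point as a block. GC correction (a spline of 4 degrees of freedom on the GC of the longest GENCODE transcript) and leaving out the steepest GC slopes were chosen after seeing the data. The same transcript GC was used for exon and intron levels. The time point pairs the genotypes by hour, not by animal: deviations from the group means correlated above 0.1 in 12 of 12 pairs in total exons, total introns and nuclear introns and 11 of 12 in nuclear exons, the shared daily rhythm included. Members and lists were chosen with earlier results of these data known. Genes named were the members, the 5 most alike per member and, per list, up to those 6 of smallest p that passed; Insig1 was named as the relative of Insig2. A few genes that this rule names, and the list of SREBP2 targets, are not reported here. Depth sets only counting error. Within a genotype, pools at different times stand in for replicates, so p-values of the curve fits measure the spread about the curve. Those of the phase fits measure the spread among the times of a phase, daily change included.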

Additional observations from a re-analysis of the deposited data

How the results depend on the processing

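Insig2 rhythms kept their calls in both genotypes and all 4 tables under each alternative run. With values as deposited the median of all genes moved by -0.20 (nuclear exons) and -0.22 (total introns), and by 0.02 and -0.02 in total exons and nuclear introns. Values here are log2, and the cause of each change was not tested. The Scap difference in total exons lost its call as deposited (-0.41), with no filter (-0.42), with an added 12 h harmonic (-0.43), with the intron share as a covariate (-0.55) and without the 2 times of steepest GC slope (-0.46). Its difference in nuclear exons lost its call with the intron share (-0.34), with GC correction (-0.052, also with the block) and without the steepest times (-0.43). Scap in total introns passed as deposited (-0.39). The Srebf1 dark difference in total exons was -0.86 without the steepest times, no longer called. GC correction brought calls for the Nono-/- rhythm in total exons of Srebf1 (0.69) and Scap (0.60), the WT rhythm of Srebf1 in nuclear exons (1.64; 1.76 without the steepest times) and the Scap exon to intron ratio (-0.61, also with the block). The WT rhythm of Srebf1 in total introns lost its call without the steepest times (1.22). The Nono-/- rhythm of Srebf1 in nuclear introns lost it as deposited (1.39), with no filter (1.30), with the 12 h harmonic (1.33), with the intron share (1.11), with GC correction (0.87) and without the steepest times (0.98). The 12 h harmonic also ended calls for Srebf1 in Nono-/- nuclear exons (2.07) and in the exon to intron ratio (1.85 in WT, 1.98 in Nono-/-).

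With the time point as a replicate block, which pairs the genotypes by hour, 2 more results passed: Srebf1 total introns (0.31) and the Scap exon to intron ratio (-0.45). With GC correction and the block together, Srebf1 total introns (0.30), Scap total introns (-0.20) and Scap nuclear introns (0.27) passed. The Scap nuclear to total ratio turned from -0.13 to 0.29 and passed as well. The block raised the count of genes called for genotype in total exons from 1256 to 2082.

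Leaving out each time in turn changed these calls, with these ranges: Scap genotype in total exons (-0.51 to -0.38) and dark (-0.94 to -0.74), Scap Nono-/- rhythm in nuclear exons (0.56 to 0.89), Insig2 genotype in total introns (0.22 to 0.46), Srebf1 dark difference in total exons (-1.01 to -0.74), light difference in total introns (0.55 to 0.77) and genotype in nuclear exons (-0.69 to -0.40). The Srebf1 Nono-/- rhythm ranged over 0.68 to 0.94 in total exons, 1.43 to 2.37 in nuclear exons, 0.86 to 1.57 in nuclear introns, 1.98 to 2.94 in the nuclear to total ratio and 1.64 to 2.19 in the exon to intron ratio, which in WT ranged over 1.45 to 1.86.

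Counts of all genes called moved by more than 1.5 times as follows. For genotype, total exons (1256) gave 23 with the intron share, 1948 with GC correction, 2635 with GC correction and block, and as few as 734 without 1 time. Nuclear exons (3603) gave 1884 with the stricter filter, 1048 with the intron share, 1194 with GC correction (1881 with the block) and 1809 without the steepest times. Total introns (1506) gave 3546 as deposited, 741 with the stricter filter, 26 with the intron share and 989 without the steepest times. Nuclear introns (2163) gave 965 with the intron share, 1277 with GC correction and 659 without the steepest times. With the 12 h harmonic, WT rhythms fell to 2119 of 3611 in total exons, 508 of 1124 in nuclear exons, 437 of 1046 in total introns and 1219 of 2532 in nuclear introns, and Nono-/- rhythms to 1197 of 3270 in nuclear exons, 589 of 1359 in total introns and 1892 of 3854 in nuclear introns. Total intron rhythms were 590 (WT) and 696 (Nono-/-) as deposited and 650 and 786 with the stricter filter. WT rhythms without the steepest times were 1986 in total exons and 582 in total introns, and with GC correction 1895 in nuclear exons. Differences in rhythm in nuclear introns were 5 with GC correction and block.
Leaving out 1 time, genotype counts fell as low as 2158 (nuclear exons), 770 (total introns) and 1124 (nuclear introns), WT rhythms to 682, 633 and 1655, and Nono-/- rhythms to 1707 in nuclear exons and 2533 in nuclear introns.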
